A study of Zea mays with 10 samples.

Results

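The gene described here is nfd101, listed in the array's annotation as LOC542658, and it was represented by 19 of the 5400 EST clones printed on the arrays. A clone was read as 3 successive spots and its value was their average, so that nfd101 took up 57 spots. The 19 clones were taken by the gene symbol alone, each carried a different EST accession, and all 19 had enough values to be tested. They are numbered from clone 1 to clone 19 in the order of their rows. The tissue was the immature ear of maize at stage V15, grown in the open field and harvested on 3 days. The genotypes were the F1 hybrid of B73 and H99, the inbred line H99 and the inbred line B73, each as a bulk of 10 plants. On each array the hybrid was hybridised together with one inbred, H99 on 5 arrays and B73 on the other 5. In each set, the hybrid was labelled with Cy3 on arrays 1, 2 and 3, called forward here, and with Cy5 on arrays 4 and 5, called reversed.

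HMG proteins are small, abundant non-histone proteins of chromatin. Those of the HMGB class hold an HMG box, which binds DNA in the minor groove with little sequence preference and bends it, and they assist the assembly of nucleoprotein complexes. They act on the same DNA that linker histones bind where it enters and leaves the nucleosome. The nfd symbols are those of a maize series of nucleosome and chromatin assembly factors. The RefSeq gene table gives HMG names to other members of that series (nfd102 is also HMGe, nfd104 is also hmg2, and nfd110 is ssrp1), while nfd101 carries no such name there, so that its HMG type rests on the series it belongs to.

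All values are deposited log2 ratios of the 2 channels. They had been normalized, with the median of each array close to 0, so that 0 does not stand for equal raw signal. L2 is the mean over the H99 arrays and L1 the mean over the B73 arrays. The sources do not settle which genotype stands in the numerator. If F1 stands over the inbred, as in the definitions of the design text, a positive value means more signal in the hybrid after normalization. Signs are still given here without a direction. Nor is it stated whether the reversed arrays had been turned to the forward direction before deposit, and they were used as deposited. Missing spots made up 0.253% to 2.31% of each array. Clone values correlated at 0.333 to 0.62 among forward H99 arrays, at -0.169 to 0.218 between forward and reversed H99 arrays, at 0.761 to 0.815 among forward B73 arrays and at 0.373 to 0.538 between forward and reversed B73 arrays. Within a set each array had its own labelling, but of one RNA pool per genotype. The p-values therefore cover technical variation alone, not differences among plants, and the number of arrays limits the precision.

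Averaged over its clones, nfd101 lay close to 0 on the H99 arrays and somewhat above 0 on the B73 arrays, and neither mean passed. On the reversed H99 arrays 4 and 5 the average was -0.041 and 0.028, and on the forward H99 arrays 1, 2 and 3 it was 0.13, 0.066 and -0.015. On the reversed B73 arrays 4 and 5 it was 0.040 and 0.017, and on the forward B73 arrays 1, 2 and 3 it was 0.19, 0.11 and 0.23. All 5 B73 averages were positive, those of H99 had both signs, and the 2 sets overlapped. The gene mean was 0.034 ± 0.067 for L2 (SD, n = 5; limma adjusted p = 0.843) and 0.12 ± 0.093 for L1 (SD, n = 5; limma adjusted p = 0.0933). The 95% intervals ran from -0.081 to 0.15 for L2 and from 0.0027 to 0.23 for L1. Counted from the most positive L1, nfd101 was 54th of the 213 named genes, of which 30.5% passed for L1 and 0.469% for L2. The L1 call depended on the fit. It passed in limma on the forward arrays alone (0.18, adjusted p = 0.034), without moderated variances (adjusted p = 0.041) and with arrays weighted (0.14, adjusted p = 0.0297). In these fits 53.0%, 33.4% and 53.7% of all clones were called for L1, against 41.7% in the main fit. The share of named genes was not taken there. Without H99 array 1 the L2 mean was 0.0097 and without H99 array 4 it was 0.052, and with the median of the neighbouring clones subtracted the L1 mean was 0.0435.

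**Figure D1:**
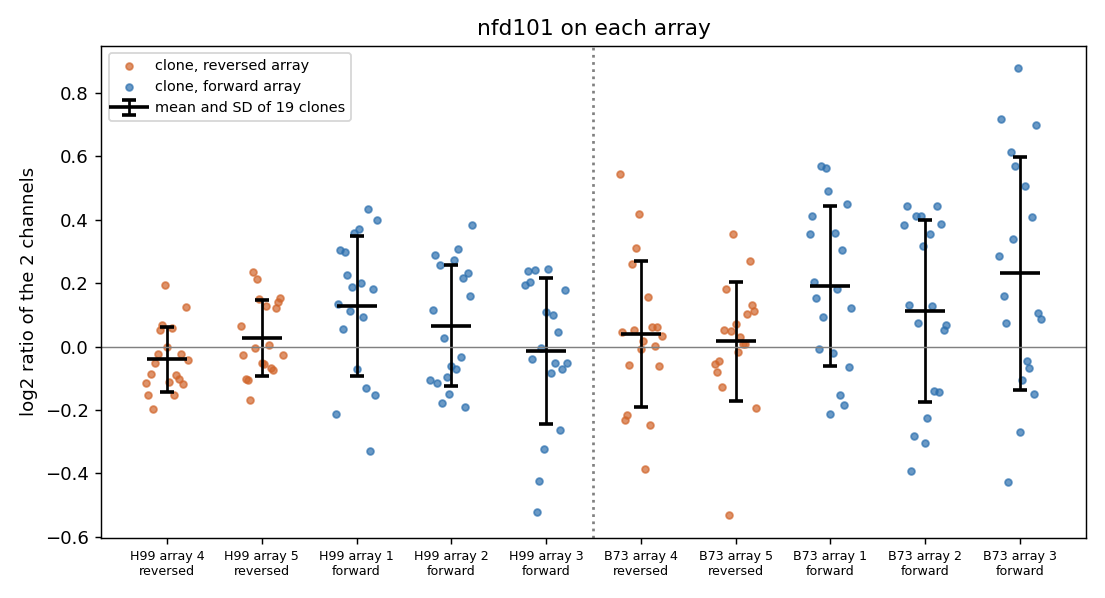
Log2 ratio of the 19 nfd101 clones (points) on each of the 10 arrays, H99 arrays left and B73 arrays right, reversed arrays before forward ones, with the mean and SD over the 19 clones (bars). The clones spread over both signs on every array, and their means are highest on forward B73 arrays 1 and 3, at 0.19 and 0.23.

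The clones spread around the mean on each array. The SD between the 19 clones on one array lay between 0.10 and 0.23 on the H99 arrays and between 0.19 and 0.37 on the B73 arrays. The 3 spots of an nfd101 clone differed far less, with a median SD of 0.0518 (0.0526 over all clones). The SD of an nfd101 clone between arrays had a median of 0.168 for H99 and 0.188 for B73, against 0.129 and 0.155 over all clones. On H99 arrays 4 and 5 the SD between clones, 0.10 and 0.12, was below the median SD of one clone between H99 arrays.

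**Figure D2:**
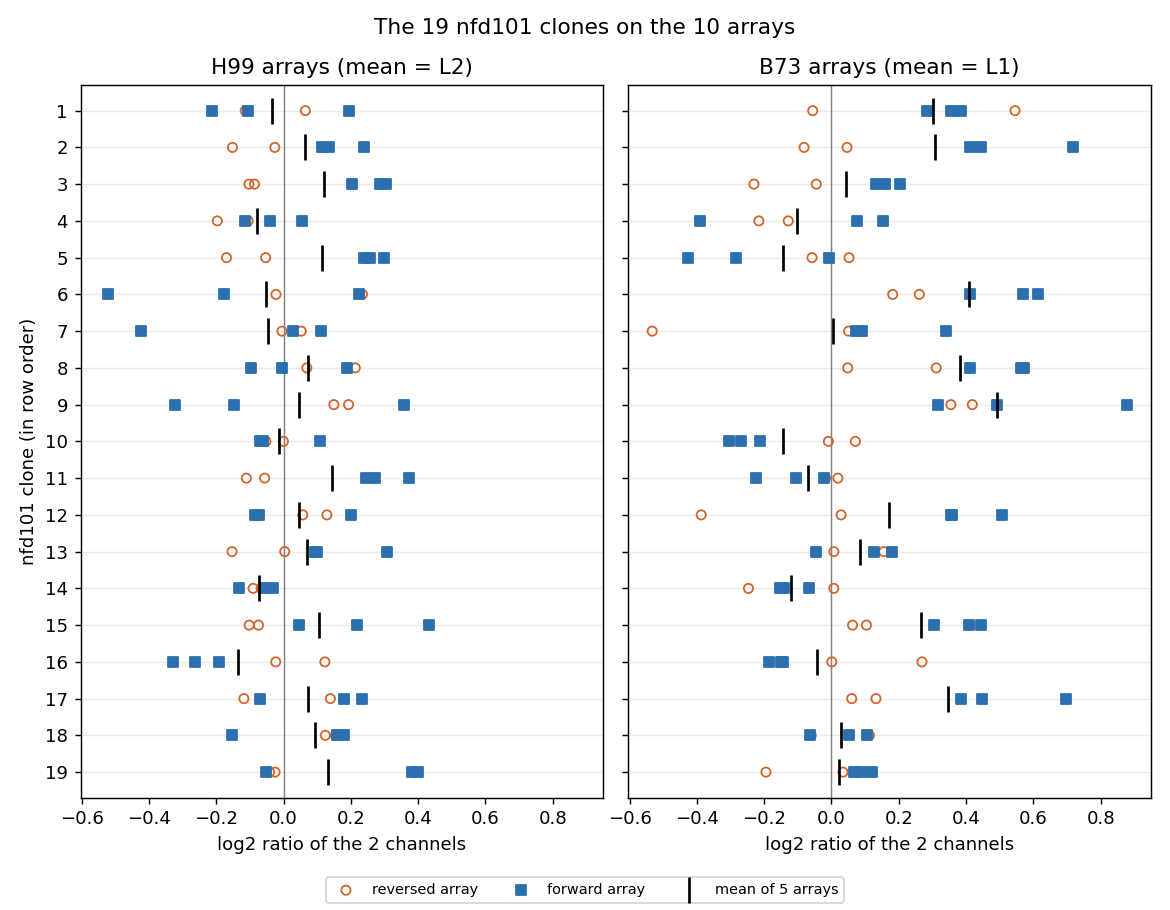
Log2 ratio of each nfd101 clone (rows) on the 5 H99 arrays (left) and the 5 B73 arrays (right), with open circles for reversed arrays, squares for forward arrays and a black tick for the mean over the 5 arrays. On the forward B73 arrays, 11 clones are positive on all 3, as 34.9% of all clones are, and 5 are negative on all 3, as 35.1% are. Above 0.25 on all 3 lie 8 clones, as 11.2% of all clones do. The cut of 0.25 was not planned, and the 8 include every clone called for L1, so that this count in part repeats those calls.

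Against H99, no clone of nfd101 passed. The 19 values of L2 ran from -0.14 for clone 16 to 0.14 for clone 11, with a median of 0.062, and 12 were positive. The lowest limma adjusted p was 0.337, and 0 clones passed an unadjusted p of 0.05, where 824 of all 5357 clones did. Over all 5357 clones tested, 1.23% were called for L2. No clone was positive on all 5 H99 arrays, where 9.01% of all clones with complete values were. Only clone 14 was negative on all 5, where 7.63% of all clones were. On the forward arrays alone, 4 clones were called for L2, which were clones 3, 5 and 11 with a positive and clone 16 with a negative sign, and 10.0% of all clones were. Clone 11, which had the highest L2, had -0.11 and -0.056 on the reversed H99 arrays and 0.37, 0.27 and 0.25 on the forward ones, so that L2, 0.14 ± 0.21 (SD, n = 5), came from 2 groups of arrays that did not overlap.

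Against B73, 7 clones passed and all 7 were positive. Of all clones 41.7% were called for L1 and 21.0% were called positive, while 36.8% of the nfd101 clones were called, a share below the background for either sign and above that for positive calls. Clone 9 had the largest value. It lay at 0.42 and 0.36 on the reversed B73 arrays and at 0.49, 0.32 and 0.88 on the forward ones, and its L1 was 0.49 ± 0.23 (SD, n = 5; limma adjusted p = 0.000743). This L1 was larger in size than that of 97.4% of all clones tested. It was the only nfd101 clone whose reversed and forward B73 arrays were all above 0.3.

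Clone 6 had 0.26 and 0.18 on the reversed B73 arrays and 0.57, 0.41 and 0.61 on the forward ones, with L1 = 0.41 ± 0.19 (SD, n = 5; limma adjusted p = 0.00278). Clone 8 had 0.31 and 0.048 on the reversed B73 arrays and 0.56, 0.41 and 0.57 on the forward ones, with L1 = 0.38 ± 0.22 (SD, n = 5; limma adjusted p = 0.00103). Both were positive on all 5 B73 arrays, and in both the forward values were the higher ones. Clone 17 had 0.060 and 0.13 on the reversed B73 arrays and 0.45, 0.39 and 0.70 on the forward ones, with L1 = 0.35 ± 0.26 (SD, n = 5). Clone 15 had 0.063 and 0.10 on the reversed B73 arrays and 0.31, 0.44 and 0.41 on the forward ones, with L1 = 0.26 ± 0.17 (SD, n = 5). These clones, too, kept one sign on all 5 arrays, with limma adjusted p of 0.00354 and 0.013. With clone 9, 5 of the 19 clones were positive on all 5 B73 arrays and 0 were negative on all 5. Of all clones with complete values, 20.4% were positive and 17.3% negative on all 5.

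The remaining called clones did not keep one sign. Clone 2 had 0.046 and -0.081 on the reversed B73 arrays and 0.41, 0.44 and 0.72 on the forward ones, with L1 = 0.31 ± 0.32 (SD, n = 5; limma adjusted p = 0.0129). Clone 1 had 0.55 and -0.056 on the reversed B73 arrays and 0.36, 0.38 and 0.28 on the forward ones, with L1 = 0.30 ± 0.22 (SD, n = 5; limma adjusted p = 0.00559). In clone 1 the 2 reversed arrays thus gave the highest and the lowest value of the set. The other 12 clones had L1 between -0.15 and 0.17, and the lowest adjusted p among them was 0.0757. Clone 12 was the highest of these, with 0.36, 0.36 and 0.51 on the forward B73 arrays but -0.39 and 0.029 on the reversed ones. Clone 10 was among the lowest, with -0.0090 and 0.071 on the reversed B73 arrays and -0.21, -0.30 and -0.27 on the forward ones, the opposite arrangement to clone 12.

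The 7 calls for L1 depended on how the reversed arrays were treated. When those of B73 were turned, 0 of the 19 clones were called and 0 of all clones. On the forward arrays alone 11 were called, 9 of them positive, where 53.0% of all clones were called. On the reversed arrays alone only clone 9 was called, where 14.2% of all clones were. With arrays scaled to one spread 4 were called, and 21.4% of all clones. The share over all clones thus moved with the setting as well. Without B73 array 5, 2 of 9 calls were negative (46.3% of all clones called). Without B73 array 4, 1 of 9 was negative (42.0% of all clones called). With the median of the neighbouring clones subtracted, where 38.5% of all clones were called, 6 of the 7 were called and, beside them, clones 3 and 10 with a negative sign (-0.22 and -0.35).

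**Figure D3:**
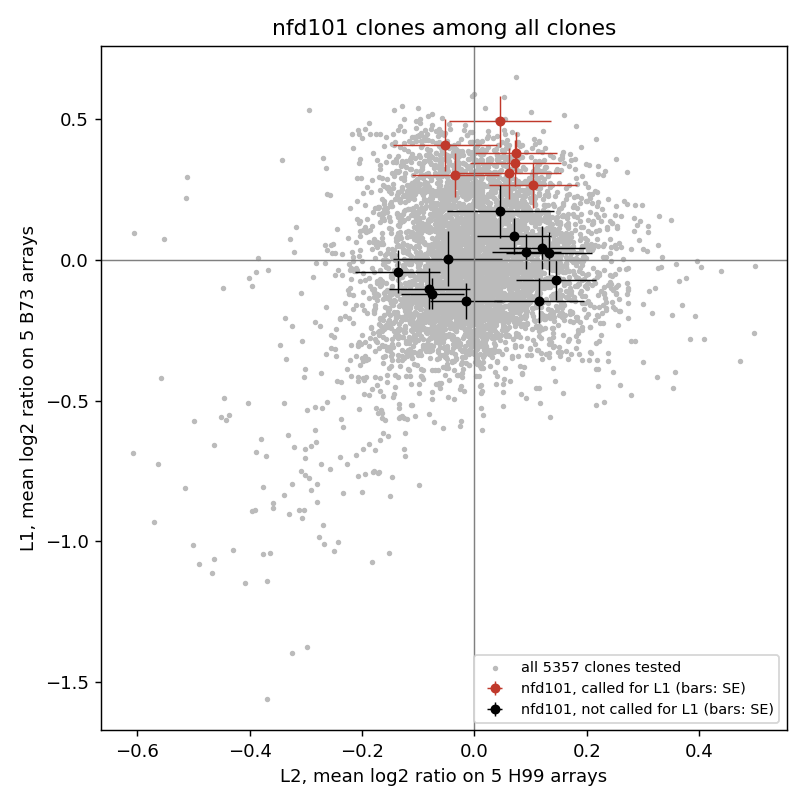
L2 (horizontal, mean log2 ratio on the H99 arrays) against L1 (vertical, mean on the B73 arrays) for all 5357 clones tested (grey) and the 19 nfd101 clones, with SE bars; red clones were called for L1. The red clones lie between 0.26 and 0.49 in L1, within the cloud of all clones, and between -0.053 and 0.10 in L2.

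Some nfd101 clones had lower values on the reversed arrays than on the forward ones. As a gene mean, nfd101 was at -0.0065 on the reversed and 0.060 on the forward H99 arrays, and at 0.028 on the reversed and 0.18 on the forward B73 arrays. The difference, reversed minus forward, was -0.067 ± 0.093 for H99 and -0.15 ± 0.093 for B73 (SE; limma adjusted p = 0.726 and 0.273). Among single clones, 2 were called negative for this difference in H99 and 4 in B73, and 0 were called positive in either set. Over all clones 1.10% were called negative in H99 and 6.93% in B73, while 3.21% were called positive in H99 and 8.49% in B73.

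Clone 3 was called in both sets. It had -0.087 and -0.10 on the reversed H99 arrays and 0.30, 0.29 and 0.20 on the forward ones, a difference of -0.36 ± 0.098 (SE; limma adjusted p = 0.045). It had -0.23 and -0.045 on the reversed B73 arrays and 0.20, 0.13 and 0.16 on the forward ones, a difference of -0.30 ± 0.098 (SE; limma adjusted p = 0.0459). Its reversed and forward arrays did not overlap in either inbred, and its L2 of 0.12 and L1 of 0.044 are means of values of opposite sign. The other clone called in H99 was clone 11, at -0.38 ± 0.099 (SE; limma adjusted p = 0.0383). The others called in B73 were clone 12 at -0.59 ± 0.13, clone 2 at -0.54 ± 0.11 and clone 17 at -0.41 ± 0.12 (SE), with limma adjusted p of 0.0108, 0.00849 and 0.035. Clones 2 and 17 were also called for L1. In 5 clones, which were clones 2, 3, 5, 11 and 15, every reversed H99 array was negative and every forward one positive, an arrangement that 7.21% of all clones showed. These arrangements were picked after the values were seen. A dye effect and reversed arrays left unturned before deposit cannot be told apart from these values.

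The orientation calls were few and depended on single arrays. Without H99 arrays 2, 3, 4 or 5 the H99 count was 0, and without array 1 it was 1. Without B73 arrays 3, 4 or 5 the B73 count was 2, 2 or 1. With arrays scaled to one spread the counts were 6 for H99 and 0 for B73. The share of all clones called for orientation was not taken under these settings, so these counts have no background beside them.

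**Figure D4:**
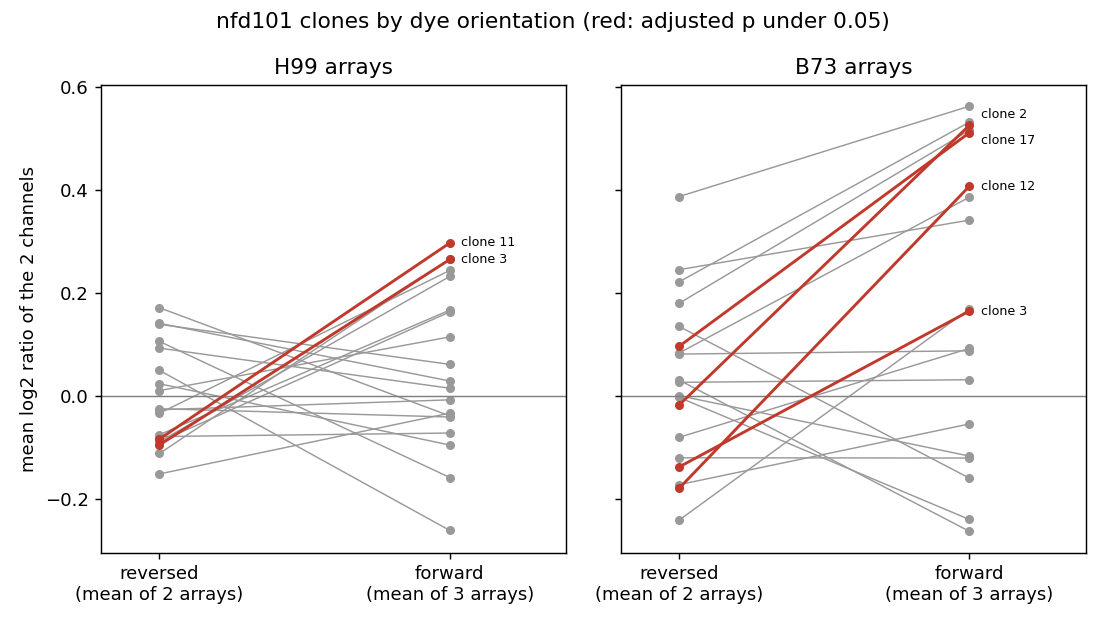
Mean log2 ratio of each nfd101 clone on the 2 reversed and the 3 forward arrays of H99 (left) and B73 (right), joined by a line per clone; red lines passed an adjusted p of 0.05 for the difference. The red lines all lie lower on the reversed arrays, by 0.36 and 0.38 in H99 and by 0.30 to 0.59 in B73.

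Dominance was measured by d, the average of L2 and L1, which sets the hybrid against the midpoint of both inbreds. It passed in 5 clones, all positive, where 25.2% of all clones were called and 12.5% were called positive. They were clone 9 at 0.27 ± 0.064, clone 8 at 0.23 ± 0.052, clone 17 at 0.21 ± 0.058, clone 2 at 0.19 ± 0.065 and clone 15 at 0.18 ± 0.056 (SE), with limma adjusted p between 0.00608 and 0.044. All 5 had also been called for L1, which d contains. No nfd101 clone had one sign on all 10 arrays, as 4.52% of all clones did. The gene mean of d was 0.076 ± 0.038 (SE; limma adjusted p = 0.154), and 15.0% of the named genes passed for d. Without H99 array 1 or 2, or without B73 array 1, 2 or 3, the count of clones was 3, where the share of all clones called was also lower than with all 10 arrays (13.5% without B73 array 1, for example), and without B73 array 5 it was 8, with 32.4% of all clones. With the reversed B73 arrays turned it was 0 (0.0373% of all clones), on the forward arrays alone 11 (35.5%) and on the reversed ones 2 (19.5%). Scaling the arrays to one spread gave 3 (15.9% of all clones), quantile normalization 3 (18.7%), a fit without moderated variances 2 (13.1%) and one with arrays weighted 13 (42.5%).

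The additive measure a was taken as the halved difference of L2 and L1, with L1 subtracted, and sets the inbreds against each other through the hybrid. It passed in 4 clones, all negative, where 20.3% of all clones were called and 11.2% were called negative. In clone 6 the H99 arrays gave -0.023 and 0.23 reversed and 0.22, -0.18 and -0.52 forward, all but 2 of them below the lowest B73 value of 0.18, with a = -0.23 ± 0.066 (SE; limma adjusted p = 0.0221). In clone 9 they gave 0.19 and 0.15 reversed and 0.36, -0.15 and -0.32 forward, against 0.32 or more on the B73 arrays, with a = -0.22 ± 0.064 (SE; limma adjusted p = 0.0227). Clones 1 and 8 followed at -0.17 ± 0.055 and -0.15 ± 0.052 (SE; limma adjusted p = 0.0374 and 0.0451). In none of the 19 clones were the H99 and the B73 arrays free of overlap, a separation that 11.7% of all clones had.

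As a gene, nfd101 had a = -0.042 ± 0.038 (SE; limma adjusted p = 0.448), with a 95% interval from -0.12 to 0.039, and 12.7% of the named genes passed for a. The 4 calls were close to the threshold. The count was 0 without H99 array 2, B73 array 1 or B73 array 3, 1 without H99 array 3, and 2 without H99 array 1, H99 array 4 or B73 array 2, where the share of all clones called was also lower than with all 10 arrays (11.1% without B73 array 1, for example). It was also 0 with arrays scaled to one spread (8.79% of all clones), after quantile normalization (12.2%), without moderated variances (8.53%), on the reversed arrays alone (3.11%) and with the reversed B73 arrays turned (0.0373%). It was 10 on the forward arrays alone, 3 of them positive, where 40.9% of all clones were called. With the median of the neighbouring clones subtracted it was again 4 (19.9% of all clones), but 3 of these were positive and only clone 1 was shared.

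The design text classes genes by d over the absolute value of a, and a size of 1 means that the hybrid equals one inbred. By a 95% Fieller interval, all 4 clones called for a fell in the dominance class, whose interval holds 1 but not 0. The ratio was 0.80 for clone 1 (0.11 to 2.9), 0.77 for clone 6 (0.16 to 2.2), 1.5 for clone 8 (0.64 to 5.4) and 1.2 for clone 9 (0.52 to 3.3). Over all clones called for a, 51.5% were in that class. In these 4 clones L2 was smaller in size than L1, which places the hybrid closer to H99. This order is not particular to nfd101, since over all clones L2 also spread less than L1 (SD 0.11 against 0.23). The share of all clones with the smaller L2 was not taken. The dominance class held 0 nfd101 clones wherever no clone was called for a, and also without H99 array 3. It held 2 without H99 array 1, H99 array 4 or B73 array 2. On the forward arrays alone it held 7, where 40.9% of all clones were called for a. The share of all clones in that class was taken with all 10 arrays only.

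The spread between nfd101 clones was no larger than that over all clones. The SD of L2 over the 19 clones was 0.083, against 0.11 over all clones, and the SD of L1 was 0.21, against 0.23. Among the 19 named genes with at least 10 tested clones, nfd101 was 10th by the SD of L2 and 13th by that of L1, where the SD of L1 ran from 0.16 to 0.35. Over the 171 pairs of nfd101 clones, the correlation across the 10 arrays had a median of 0.134, ran from -0.862 to 0.92 and was below 0 in 80 pairs. The medians of the other 18 genes with at least 10 tested clones ran from -0.171 to 0.679, and 0.0486 was the middle of these. These are descriptions, since the clones share the arrays and in part the transcript. Whether single clones also hybridise with related HMG transcripts was not tested.

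By Pearson's r across the 10 arrays, 3 of the 69 other named genes with at least 3 clones had means most like that of nfd101. They were eno1 (LOC732811), an enolase of glycolysis, with r = 0.854 and rho = 0.782, rpl17 (LOC541667), a protein of the large ribosomal subunit, with r = 0.843 and rho = 0.818, and sod3 (LOC542764), a mitochondrial superoxide dismutase, with r = 0.825 and rho = 0.818. By rho, the calmodulin gene CaM1 (LOC542420), at 0.806, stood above eno1. The 10 points share their labellings and dye orientations. The 3 genes ranked by r had values of small size, with L1 between 0.056 and 0.070 and L2 between -0.044 and 0.033, and none passed for L2, L1, d or a.

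The array held 17 other chromatin genes, with 95 clones, 93 of them tested. For L2 none of the 17 gene means passed, for L1 2 passed above 0 and 2 below it, for d 1 was negative and for a 1 was negative. Among all named genes, 0.469% passed for L2, 30.5% for L1, 15.0% for d and 12.7% for a. The median L2 of the 17 genes was -0.00087 and their median L1 0.037, against -0.0038 and -0.013 over all features of the gene fit. Closest in kind to nfd101 were the other HMG genes, each with a single clone. The clone of hmg2/nfd104 (LOC541951) lay at -0.32 ± 0.071 for L1 (SE; limma adjusted p = 0.00287) and at -0.20 ± 0.050 for d (SE; limma adjusted p = 0.0111), the sign opposite to the nfd101 clones called. The clone of HMGc2 (LOC542455) lay at 0.22 ± 0.082 for L1 (SE; limma adjusted p = 0.042). That of HMG I/Y-2 (LOC541871), whose class binds AT-rich DNA through AT hooks and has no HMG box, lay at -0.088 ± 0.076 (SE; limma adjusted p = 0.364).

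The linker histones had many clones and means near 0. The gene his1a (also hon102, LOC541964) had L2 = -0.00036 and L1 = -0.028 over 34 tested clones, hon101 (LOC541973) had -0.032 and 0.036 over 16, and his1 (LOC542385) had -0.027 and -0.016 over 11. Of the 34 tested clones of his1a, 6 were called positive and 9 negative for L1, so that calls of both signs occurred within that gene. Over all clones tested, 21.0% were called positive and 20.7% negative for L1. Outside these families, the SET-domain gene sdg110 (LOC542662), of a family of histone methyltransferases, had 1 clone at 0.35 ± 0.071 for L1 and -0.22 ± 0.050 for a (SE; limma adjusted p = 0.00162 and 0.00956). The 3 clones of mbd106, named for a methyl-CpG-binding domain, averaged -0.21 ± 0.065 for L1 (SE; limma adjusted p = 0.0186), and all 3 were called negative.

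**Figure D5:**
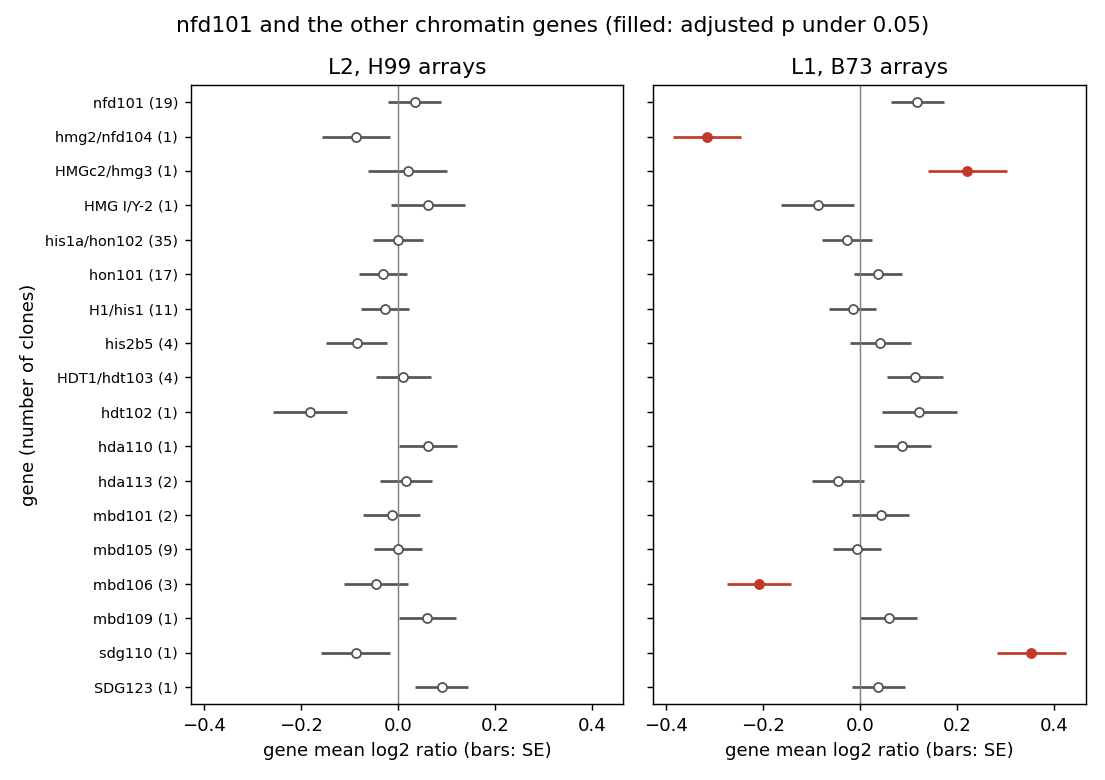
Gene mean log2 ratio with its SE for nfd101 and the 17 other chromatin genes, for L2 (left, H99 arrays) and L1 (right, B73 arrays), with the number of clones in brackets; filled red points passed. For L2 no gene passed, and for L1 hmg2/nfd104 and mbd106 are below 0 and HMGc2 and sdg110 above it.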

How the data were processed

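The authors deposited 1 log2 ratio of the 2 channels per spot for each of 10 cDNA arrays; the log2 scale is per the series' design text. Per the labels' protocols, each genotype's total RNA from 3 or more extractions was combined before the poly(A) fraction was taken, of which 1 microgram went into a labelling. The deposited log2 values had been normalized, since the median of each array was between -0.001 and 0; how the slides were scanned, corrected and filtered is not stated. Missing spots were kept missing, and 3 of the nfd101 spot values were.

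Spots were averaged in threes to clones. A clone was tested with at least 3 values per inbred and 1 per dye orientation, which left 5357 of 5400. All 10 arrays were fitted over all tested clones with limma 3.58.1 under R 4.3.3 (means per inbred, dye orientation left out), and p-values were adjusted by Benjamini and Hochberg at 0.05 over all clones. A second fit had a mean per inbred and orientation. In the gene fit the clones of each of 213 named genes were averaged per array and unnamed clones kept, which gave 4763 features. The clone fit was tested for L1 and L2 on simulated data, with independent noise at each clone's SD and no dye orientation effect. Of changes of 0.25 in 200 clones, 35.5% were recovered for L1 and 40.5% for L2. Of changes of 0.5, 94.5% and 96% were, so that small changes could be missed.

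Names were taken from an older annotation of the platform: 811 clones carried 1 gene name, 0 several and 4589 none, and the RefSeq table for Zm-B73-REFERENCE-NAM-5.0 held 208 of the 213 genes and served for names only. The gene, the lists and the tests were chosen with earlier results of these data known. The rule for named genes took nfd101, the 3 genes with at least 3 clones most correlated with it, and the chromatin genes found by an expression over symbols; of the last, those described singly were picked after their values were seen. RefSeq descriptions, which the rule also named, were not used here. Alternatives were the direction and weighting of the reversed arrays, normalization, the summary of spots, the variance, the filter, each array left out and the replicate number as a block. Array-wise counts for dye orientation and the dominance class were added after seeing the data. Same-numbered arrays were checked for pairing: their deviations from the inbred means correlated at 0.16, 0.0647, -0.294, 0.309 and -0.0888 for numbers 1 to 5, so that the numbers were not taken as pairs.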

Additional observations from a re-analysis of the deposited data

Results flagged for a closer look

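In 3 of 40 groups of 5 arrays, which were the 19 clones and the gene mean in each inbred, 1 array stood apart by Dixon's ratio, and chance gives about 1 in 20. Clone 7 had -0.42 on H99 array 3, against -0.0050 to 0.11 on the other H99 arrays. Clone 18 had -0.15 on H99 array 1, against 0.12 to 0.18 on the others. Clone 19 had -0.19 on B73 array 5, against 0.034 to 0.12 on the others. None of these 3 clones was called for L2, L1, d or a.

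In 4 clones L2 and L1 differed by the test of the additive parameter. That is 21.1% of the nfd101 clones, near the 20.3% of all clones called. With arrays scaled to one spread, after quantile normalization or without moderated variances, 0 of the nfd101 clones were called. This parameter was -0.17 for clone 1, -0.23 for clone 6, -0.15 for clone 8 and -0.22 for clone 9.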

How the results depend on the processing

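The gene mean stayed on its side of 0 in L1, d and a under every alternative run, and L2 turned to -0.0065 on the reversed arrays alone. For L1 the gene mean passed, with 0.18 on the forward arrays, 0.12 with own variances and 0.14 with array weights. For d it passed with array weights, at 0.095. In these fits 53.0%, 33.4% and 53.7% of all clones were called for L1, and 42.5% for d with array weights. With each array left out in turn, 0 clones were called for L2 throughout, 5 to 9 for L1, 3 to 8 for d and 0 to 5 for a. The share of all clones called ran from 26.1% to 46.3% for L1, from 13.5% to 32.4% for d and from 11.1% to 28.0% for a. For dye orientation the counts of nfd101 clones were 0 to 1 in H99 and 1 to 4 in B73, and with arrays scaled to one spread 6 and 0. The share of all clones was not taken for these orientation counts.

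The main counts were 0 for L2, 7 for L1, 5 for d and 4 for a, where 1.23%, 41.7%, 25.2% and 20.3% of all clones were called. With the reversed B73 arrays turned, or those of both inbreds, L1, d and a gave 0. Of all clones, 0% were then called for L1 and 0.0373% for d and for a with those of B73 turned. With those of both inbreds turned, 0% of all clones were called for L1, d or a. On the forward arrays alone the counts were 4 for L2, 11 for L1, 11 for d and 10 for a, where 10.0%, 53.0%, 35.5% and 40.9% of all clones were called. On the reversed ones alone they were 1 for L1, 2 for d and 0 for a, with 14.2%, 19.5% and 3.11% of all clones. Scaling to one spread gave 4, 3 and 0 for L1, d and a (21.4%, 15.9% and 8.79% of all clones). Quantile normalization gave 3 for d and 0 for a (18.7% and 12.2%). Own variances gave 2 for d and 0 for a (13.1% and 8.53%), and array weights 13 for d, 3 of them negative (42.5%). With the reversed H99 arrays turned, a had 6 calls, 2 of them positive, where 28.3% of all clones were called. With the replicate number as a block, which does not pair the arrays, a had 2 calls and d 5, 4 of them shared. Of all clones, 15.5% were called for a and 24.7% for d in that fit. On the reversed arrays alone, clone 2 turned sign in L1 (-0.018) and d (-0.053) and clone 15 in d (-0.0026). With the median of the neighbouring clones subtracted, clone 3 was called for L1 at -0.22, and the gene mean was 0.041 for L2, 0.0435 for L1 and -0.0012 for a. The SDs between clones stayed within 1.5 times under that setting. The causes were not tested.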
